A study of Mus musculus with 12 samples.

Results

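The report describes 5 genes of one family of transcription factors, the E proteins Tcf4 and Tcf12 and their inhibitors Id1, Id2 and Id3, in sorted mouse marrow cells. Every probe that the array annotation names for one of these genes was taken, which gave 7 probes (2 each for Tcf4 and Tcf12, 1 each for Id1, Id2 and Id3) and 5 of 31541 gene names. All 7 passed the filter on dim probes, as did 23298 probes in all.

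Bone marrow came from female C57BL/6 mice, 16 weeks old, that carry human CD4 (hCD4) as a reporter under enhancer and promoter sequence of Cebpa, the gene of a myeloid transcription factor. The 6 groups were hCD4+ granulocyte-monocyte progenitors (GMP), hCD4+ and hCD4- cells of the pre-pro-B stage, hCD4+ and hCD4- cells of the pro-B stage, and pre-B cells, for which the labels give no hCD4 status. The hCD4- cells carry the transgene too, so no group is without it. Each group had 2 arrays, and the series title speaks of 2 mice without tying a replicate number to an animal. P-values therefore measure only the spread between these arrays, and in such bulk samples fewer cells of a type and less RNA per cell cannot be told apart.

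E proteins are helix-loop-helix factors that pair with each other and bind DNA at E-box motifs. Id proteins have the helix-loop-helix part but lack the basic region that contacts DNA, so a pair with an Id protein does not bind. In marrow the balance between the families is known for its part in B cell commitment, where Tcf3 (E2A, another E protein) acts upstream of Ebf1 and Pax5, and in plasmacytoid dendritic cells, whose identity depends on Tcf4.

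Levels are log2 intensities relative to the 75th percentile of the same array, so 0 is the brightness of that percentile. They compare arrays for 1 probe, never 1 probe with another. A change is the difference of 2 group means on this scale with its standard error (SE), and "rose" or "fell" is written where limma's test, adjusted over all 23298 probes by the Benjamini-Hochberg method, gave an adjusted p under 0.05. The arrays lie on 3 slides of 4, and the slides pair GMP with hCD4- pre-pro-B, hCD4- pro-B with hCD4+ pre-pro-B, and pre-B with hCD4+ pro-B arrays. For every other pair of groups, slide and group cannot be told apart. Both hCD4- pre-pro-B arrays were dimmer than all others, their 75th percentile being 246 and 358 intensity units against 435 to 946 on the others, and their replicates differed most (median SD 0.226 against 0.100 to 0.159).

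The sorted groups were set against marker genes. The 6 GMP markers summed to 871 to 1080 times the 75th percentile in GMP, 13.8 to 33.7 in hCD4+ and 2.08 to 3.54 in hCD4- pre-pro-B, 125 to 138 in hCD4+ and 1.25 to 1.89 in hCD4- pro-B, and 1.85 to 2.69 in pre-B arrays. Of the 8 B lineage markers, all were above background in both pro-B groups and in pre-B arrays. Ebf1 and Pax5 were not well above background on any array labelled pre-pro-B, whereas all 18 plasmacytoid dendritic cell genes were above background on all of these arrays. The level of Siglech, a marker of plasmacytoid dendritic cells, lay between 6.18 and 7.52 on all 12 arrays, with the lowest mean in GMP and the highest in hCD4- pre-pro-B arrays.

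The sequences shown are those that bear on the Id genes. The Id3 probe is printed because the array annotation gives it a span of 175 bases (chr4:135700075-135700249, mm9) although the oligo has 60, so its listed place is longer than what was hybridised. The stretches of 250 bases before the annotated starts of Id2 (chr12:25096093-25096342, minus strand) and Id3 (chr4:136143572-136143821, plus strand) are RefSeq sequence of GRCm38.p6, printed because both genes were at their lowest in GMP. In the 2 upstream stretches capitals mark the E-box CANNTG, which reads the same on both strands.
Id3 probe: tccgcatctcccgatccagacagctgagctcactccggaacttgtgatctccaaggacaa
Id2 upstream: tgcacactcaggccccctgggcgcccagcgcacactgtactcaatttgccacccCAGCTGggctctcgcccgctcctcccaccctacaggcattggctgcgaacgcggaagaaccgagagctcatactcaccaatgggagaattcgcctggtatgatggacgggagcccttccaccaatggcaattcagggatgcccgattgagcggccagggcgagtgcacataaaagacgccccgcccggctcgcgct
Id3 upstream: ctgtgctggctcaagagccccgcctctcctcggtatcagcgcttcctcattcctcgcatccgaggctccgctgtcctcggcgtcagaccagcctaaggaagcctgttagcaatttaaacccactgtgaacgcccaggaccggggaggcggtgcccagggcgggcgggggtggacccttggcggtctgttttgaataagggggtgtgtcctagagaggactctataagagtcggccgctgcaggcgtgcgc
Id2 had 1 E-box in this window and Id3 had 0. Of 32851 mouse promoter windows of 250 bases in the same table, 66.2% held at least 1, with a median of 1. A match is a run of letters and not a measured site, and the lack of one says only that these letters are not in this window.

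Tcf4, on chromosome 18, was highest in pre-pro-B cells and lowest in GMP. Its first probe read 1.41 and 1.90 in GMP, 5.82 and 5.82 in hCD4+ and 6.26 and 6.80 in hCD4- pre-pro-B, 3.57 and 3.20 in hCD4+ and 3.43 and 3.43 in hCD4- pro-B, and 2.91 and 2.97 in pre-B arrays. The 4 pre-pro-B arrays lay above all others, the GMP arrays below all others, and the pro-B arrays of both kinds overlapped. The second probe read -4.75 and -3.99 in GMP, 1.41 and 1.08 in hCD4+ and 1.62 and 2.32 in hCD4- pre-pro-B, -1.82 and -1.94 in hCD4+ and -1.59 and -1.85 in hCD4- pro-B, and -1.97 and -2.40 in pre-B arrays, and was not well above background on GMP array 1. It put the groups in the same order. The range of group means was 29.2-fold by the first probe and 80.9-fold by the second, whose low end is a group with 1 of 2 arrays above background.

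**Figure D1:**
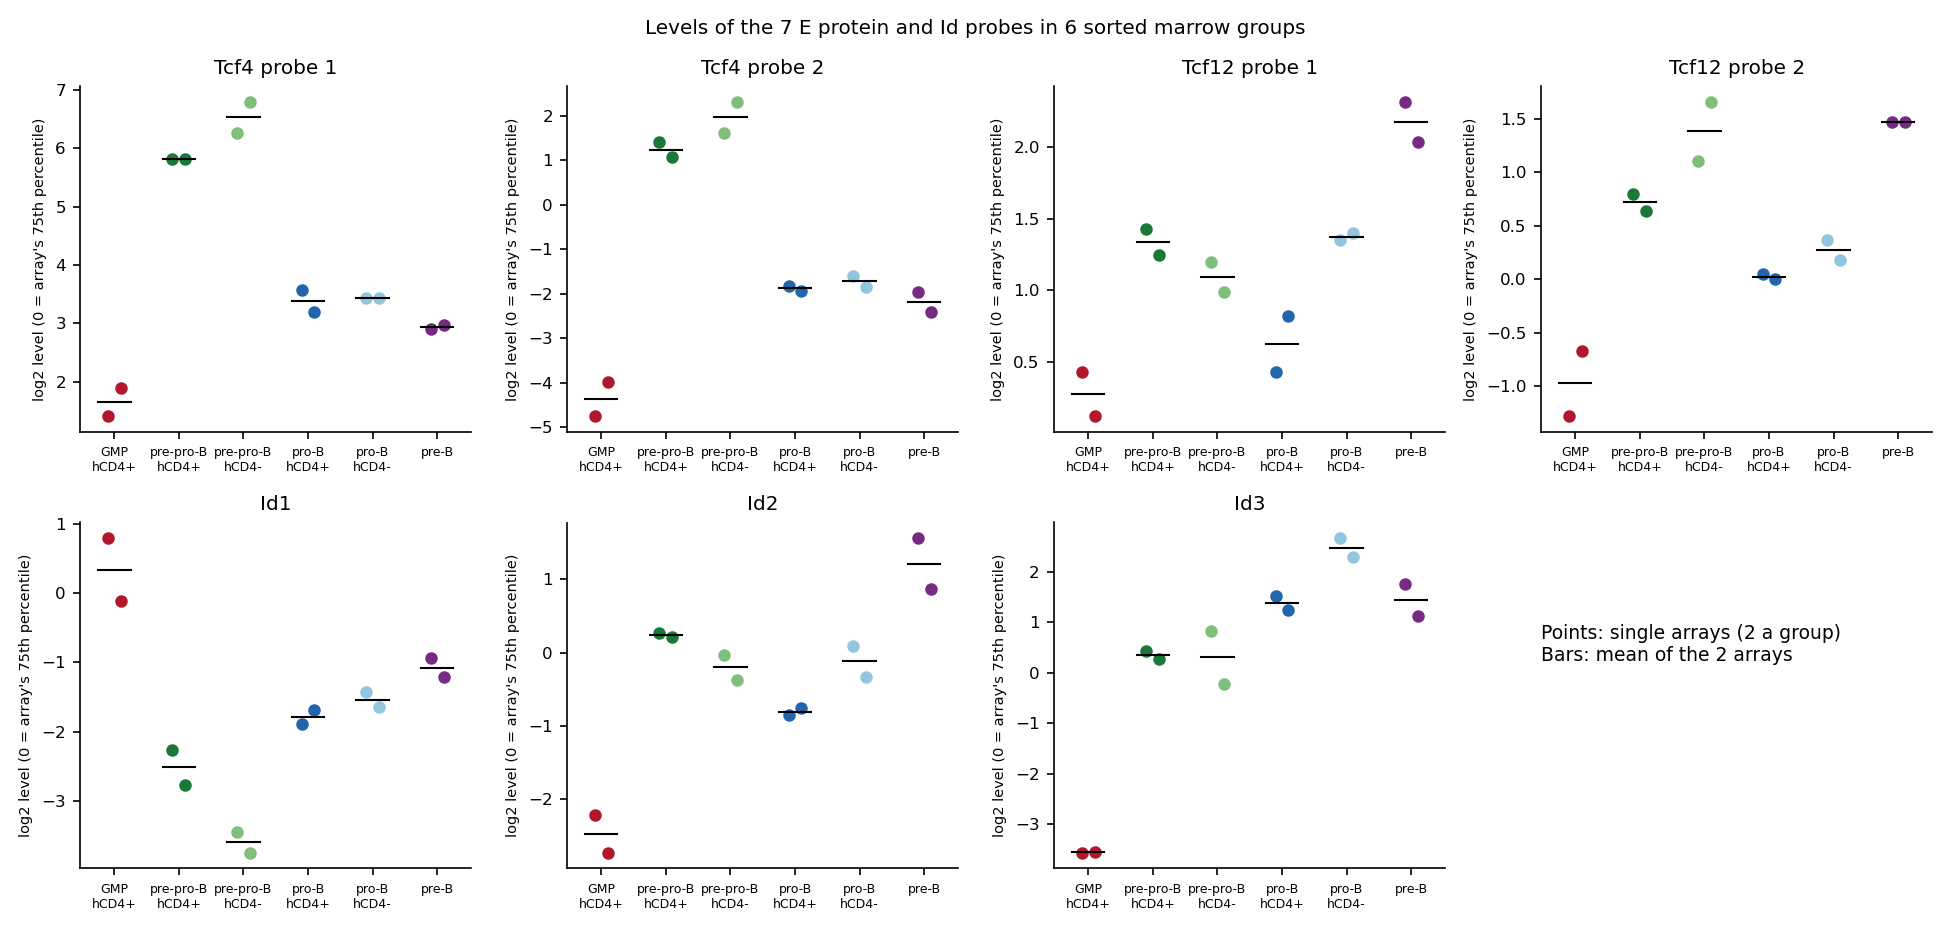
Log2 level relative to each array's 75th percentile (y axis, own scale in each panel) of the 7 probes in the 6 sorted groups (x axis). Points are single arrays and bars are means of the 2 arrays of a group. Tcf4 stands highest in both pre-pro-B groups, Id1 highest in GMP, Tcf12 probe 1 and Id2 highest in pre-B, and Id3 highest in hCD4- pro-B cells.

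Tcf4 fell in pro-B cells by both probes. In hCD4- pro-B arrays against hCD4- pre-pro-B arrays the change was -3.10 ± 0.22 (SE, 2 arrays a group; adjusted p = 6.96e-06 in limma), an 8.56-fold lower level, and by the second probe -3.69 ± 0.31 (adjusted p = 1.79e-05 in limma). In hCD4+ pro-B arrays against hCD4+ pre-pro-B arrays it was -2.43 ± 0.22 and -3.13 ± 0.31 (adjusted p = 5.26e-05 and 8.29e-05 in limma). The comparison within 1 slide, hCD4- pro-B arrays against hCD4+ pre-pro-B arrays, gave -2.39 ± 0.22 and -2.97 ± 0.31 (adjusted p = 4.86e-05 and 9.69e-05 in limma), which is close to the fall with hCD4+ on both sides and smaller than that with hCD4- on both sides. In pre-B against pro-B arrays Tcf4 did not pass the test by either probe, with changes of -0.49 and -0.47 against hCD4- pro-B and -0.44 and -0.31 against hCD4+ pro-B. GMP were lower than hCD4- pre-pro-B on the same slide by -4.87 ± 0.22 and -6.34 ± 0.31, and lower than pre-B by -1.28 ± 0.22 and -2.18 ± 0.31 (adjusted p = 5.01e-07, 7.34e-07, 0.00110 and 0.000365 in limma).

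Genes of plasmacytoid dendritic cells fell with Tcf4 between pre-pro-B and pro-B cells, but not in every comparison. Their summed level, over 18 genes, was 164 to 167 in GMP, 1130 to 1190 in hCD4+ and 1500 to 1540 in hCD4- pre-pro-B, 265 to 272 in hCD4+ and 176 to 181 in hCD4- pro-B, and 320 to 337 in pre-B arrays. The sum, which the brightest genes dominate, was higher in pre-B than in either pro-B group, while the mean level of Tcf4 was lower there by both probes. Counted by gene, most fell in pre-B against hCD4+ pro-B arrays, where Tcf4 did not pass the test by either probe. There 2 of 18 rose and 13 fell (median change -1.56), beside 18.6% and 23.8% of all leading probes. Against hCD4- pro-B arrays 7 rose and 3 fell (median change 0.21), beside 19.4% and 21.0%. In hCD4- pro-B arrays against hCD4- pre-pro-B arrays 18 of 18 fell, with a median change of -4.31, while over the leading probes of all 18556 gene names 26.9% fell and the median change was 0.02. Among them Runx2, a transcription factor, was at least 126-fold lower, its probe not being well above background on either hCD4- pro-B array. Ccr9, a chemokine receptor, changed by -7.26 ± 0.51 (adjusted p = 6.50e-06 in limma). Of the classical dendritic cell genes 5 of 5 fell too. The part of other cells in the Tcf4 levels was not tested.

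Tcf12 (HEB) had the narrowest range, 3.74-fold by the first probe (chr9:71692310-71692369, mm9, minus strand) and 5.45-fold by the second (chr9:71692059-71692086, where the annotation gives 28 bases for an oligo of 60). The first probe read 0.43 and 0.12 in GMP, 1.43 and 1.25 in hCD4+ and 1.20 and 0.99 in hCD4- pre-pro-B, 0.43 and 0.82 in hCD4+ and 1.35 and 1.40 in hCD4- pro-B, and 2.32 and 2.04 in pre-B arrays. Pre-B arrays were highest, and GMP overlapped hCD4+ pro-B at the low end. The second probe read -1.28 and -0.67 in GMP, 0.80 and 0.64 in hCD4+ and 1.11 and 1.66 in hCD4- pre-pro-B, 0.05 and 0.00 in hCD4+ and 0.37 and 0.18 in hCD4- pro-B, and 1.47 and 1.47 in pre-B arrays. By that probe the pre-B arrays lay within the hCD4- pre-pro-B range, so the probes disagree on whether pre-B cells stand alone at the top.

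Tcf12 rose in pre-B cells by both probes. Against hCD4+ pro-B on the same slide the change was 1.56 ± 0.18 and 1.44 ± 0.23 (adjusted p = 0.000295 and 0.00146 in limma), and against hCD4- pro-B it was 0.81 ± 0.18 and 1.20 ± 0.23 (adjusted p = 0.00994 and 0.00491 in limma). Where an array is left out, the other array stands for its group and is assumed to vary like the arrays of the other groups. The first probe's call against hCD4- pro-B was lost without hCD4- pro-B array 1 (adjusted p = 0.0525 in limma), without pre-B array 1 (0.0660) and under median scaling (0.0674). The probes parted in hCD4- pro-B arrays against hCD4- pre-pro-B arrays, where the first changed by 0.28 ± 0.18 (adjusted p = 0.223 in limma) and the second fell by 1.11 (change -1.11 ± 0.23, adjusted p = 0.00346 in limma). In hCD4+ pro-B arrays against hCD4+ pre-pro-B arrays both were lower, by -0.72 ± 0.18 and -0.69 ± 0.23 (adjusted p = 0.0113 and 0.0341 in limma). The first probe's call there was lost without hCD4+ pre-pro-B array 1 (0.0679) and without hCD4+ pro-B array 1 (0.0769), and the second's without any 1 of the 4 arrays compared (0.0750 to 0.140) or either pre-B array (0.0507) and with no filter on dim probes (0.0671).

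The group mean of Tcf12 was lowest in GMP by both probes. GMP differed by -0.82 ± 0.18 and -2.36 ± 0.23 against hCD4- pre-pro-B on the same slide, by -1.07 ± 0.18 and -1.70 ± 0.23 against hCD4+ pre-pro-B, and by -1.90 ± 0.18 and -2.45 ± 0.23 against pre-B arrays, all past the test (adjusted p = 0.00435 at most in limma). Against hCD4+ pro-B arrays, whose range GMP overlapped by the first probe, the first probe did not pass (-0.35 ± 0.18, adjusted p = 0.162 in limma) and the second was lower in GMP by -1.0 ± 0.23 (0.00889). Under median scaling hCD4+ pro-B and not GMP had the lowest mean of the first probe, and its change in GMP against hCD4- pre-pro-B was -0.37 and did not pass (adjusted p = 0.176 in limma).

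Tcf3 was not a member by the rule, and its 2 probes give the setting for the other E proteins. Its leading probe read 1.52 and 1.84 in GMP, 1.45 and 1.54 in hCD4+ and 1.61 and 2.06 in hCD4- pre-pro-B, 3.52 and 3.15 in hCD4+ and 4.0 and 4.01 in hCD4- pro-B, and 4.33 and 4.48 in pre-B arrays. In hCD4- pro-B arrays against hCD4- pre-pro-B arrays it rose by 2.17 ± 0.19 and 2.22 ± 0.16 (adjusted p = 2.41e-05 and 6.71e-06 in limma), the opposite direction to Tcf4 in the same comparison.

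**Figure D2:**
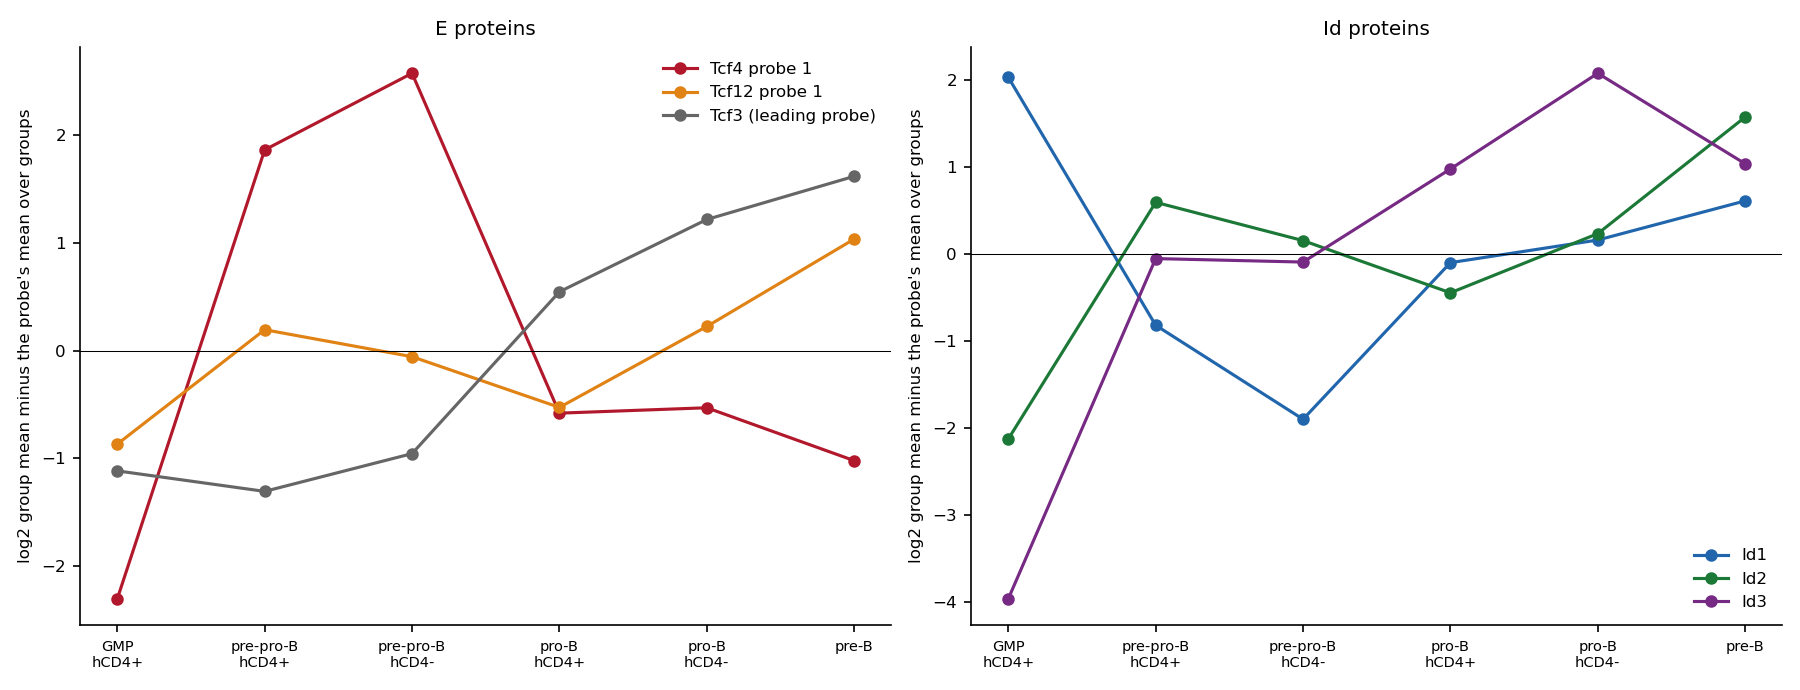
Log2 group mean minus the probe's mean over the 6 groups (y axis), for the E proteins Tcf4, Tcf12 and Tcf3 (left) and the inhibitors Id1, Id2 and Id3 (right), by sorted group (x axis). Each point is a mean of 2 arrays and lines only guide the eye. Tcf4 is highest and Tcf3 low in pre-pro-B cells, and GMP combine the highest Id1 with the lowest Id2 and Id3.

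Id1, measured at chr2:152563083-152563142 (mm9), had its highest level in GMP. It read 0.79 and -0.12 in GMP, -2.26 and -2.76 in hCD4+ and -3.44 and -3.74 in hCD4- pre-pro-B, -1.89 and -1.69 in hCD4+ and -1.43 and -1.64 in hCD4- pro-B, and -0.94 and -1.21 in pre-B arrays. The GMP arrays lay above all others and the hCD4- pre-pro-B arrays below all others. GMP were higher than hCD4- pre-pro-B on the same slide by 3.93 ± 0.30, a 15.2-fold difference (adjusted p = 8.38e-06 in limma), and higher than pre-B arrays by 1.41 ± 0.30 (adjusted p = 0.00332 in limma).

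Id1 rose in hCD4- pro-B arrays against hCD4- pre-pro-B arrays by 2.06 ± 0.30, or 4.16-fold (adjusted p = 0.000462 in limma). Against hCD4+ pre-pro-B on the same slide, hCD4- pro-B arrays were higher by 0.97 ± 0.30 (adjusted p = 0.0272 in limma), a call that was lost without hCD4+ pre-pro-B array 2 (adjusted p = 0.157 in limma), hCD4- pro-B array 1 (0.124) or hCD4- pro-B array 2 (0.0657). It was also lost under median scaling (0.0694), with normexp (0.0551), with no filter on dim probes (0.0542) and in the authors' deposited table (0.110). In hCD4+ pro-B arrays against hCD4+ pre-pro-B arrays the change of 0.72 ± 0.30 did not pass (adjusted p = 0.0746 in limma). In pre-B against pro-B arrays it did not pass either, at 0.46 against hCD4- and 0.71 against hCD4+ pro-B.

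Id2, measured at chr12:25778904-25778963 (mm9, minus strand) and known for its part in innate lymphoid and dendritic cells, was highest in pre-B arrays. It read -2.22 and -2.73 in GMP, 0.26 and 0.21 in hCD4+ and -0.03 and -0.37 in hCD4- pre-pro-B, -0.85 and -0.76 in hCD4+ and 0.09 and -0.33 in hCD4- pro-B, and 1.56 and 0.87 in pre-B arrays. The pre-B arrays lay above all others and the GMP arrays below all others, while hCD4- pro-B overlapped hCD4- pre-pro-B arrays. Id2 rose in pre-B against hCD4+ pro-B arrays of the same slide by 2.02 ± 0.27, or 4.06-fold (adjusted p = 0.000520 in limma), and against hCD4- pro-B arrays by 1.34 ± 0.27 (adjusted p = 0.00558 in limma).

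Id2 was about level between hCD4- pro-B and hCD4- pre-pro-B arrays, with a change of 0.08 and a 95% interval of -0.53 to 0.70. In hCD4+ pro-B arrays against hCD4+ pre-pro-B arrays it fell, with a change of -1.04 ± 0.27 (adjusted p = 0.0113 in limma). That call was lost without hCD4+ pre-pro-B array 1 (0.0517) or hCD4+ pro-B array 1 (0.0550). GMP were lower than hCD4- pre-pro-B by -2.27 ± 0.27 on the same slide and lower than pre-B by -3.69 ± 0.27 (adjusted p = 0.000107 and 6.96e-06 in limma). Of 17 natural killer and innate lymphoid genes 9 were kept, and their summed level was 43.9 to 46.8 in GMP, 12.3 to 13.3 in hCD4+ and 13.5 to 14.6 in hCD4- pre-pro-B, 7.27 to 7.75 in hCD4+ and 3.05 to 3.24 in hCD4- pro-B, and 2.76 to 2.90 in pre-B arrays. The GMP sum came mostly from Nkg7, with a mean level of 5.36 there, while 5 of the 9 were not well above background in GMP. At the pre-pro-B stage 4 of the 9 were not well above background in hCD4- cells, and 2 in hCD4+ cells. Klrb1c and Tox were among them in both groups. On both arrays of the group, 5 (hCD4-) and 7 (hCD4+) were above background. Klrd1, a receptor chain of natural killer cells, was 1 of these, with mean levels of 3.18 (hCD4+) and 3.41 (hCD4-). Ncr1, Gzma, Gzmb, Eomes and Tbx21 were not kept, as no group had them well above background on both arrays. The part of natural killer and innate lymphoid cells in the Id2 levels was not tested.

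Id3 spanned 65.5-fold between its group means. It read -3.56 and -3.55 in GMP, 0.43 and 0.28 in hCD4+ and 0.83 and -0.21 in hCD4- pre-pro-B, 1.52 and 1.24 in hCD4+ and 2.67 and 2.29 in hCD4- pro-B, and 1.76 and 1.12 in pre-B arrays. The hCD4- pro-B arrays lay above all others and the GMP arrays far below, while pre-B overlapped hCD4+ pro-B and the pre-pro-B groups overlapped each other. GMP were lower than hCD4- pre-pro-B on the same slide by -3.87 ± 0.34 and lower than pre-B by -5.00 ± 0.34 (adjusted p = 1.81e-05 and 4.66e-06 in limma).

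Id3 rose in hCD4- pro-B arrays against hCD4- pre-pro-B arrays by 2.17 ± 0.34, or 4.49-fold (adjusted p = 0.000680 in limma), and on 1 slide against hCD4+ pre-pro-B by 2.12 ± 0.34 (adjusted p = 0.00107 in limma). In hCD4+ pro-B arrays against hCD4+ pre-pro-B arrays it rose by 1.03 ± 0.34 (adjusted p = 0.0320 in limma), a call lost without any 1 of the 4 arrays compared (0.0685 to 0.141), under median scaling (0.178), with no filter on dim probes (0.0604) and in the authors' deposited table (0.0586). In pre-B against hCD4- pro-B arrays it fell, with a change of -1.04 ± 0.34 (adjusted p = 0.0411 in limma). That call was lost without any 1 array of GMP, hCD4+ pre-pro-B, hCD4- pro-B or hCD4+ pro-B, or without pre-B array 2 (0.0570 to 0.227). It was also lost with quantile normalization (0.0688), with no filter (0.0751), with only the arrays compared (0.0515) and in the authors' deposited table (0.0722). Against hCD4+ pro-B the pre-B change was 0.06, with a 95% interval of -0.72 to 0.83.

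**Figure D3:**
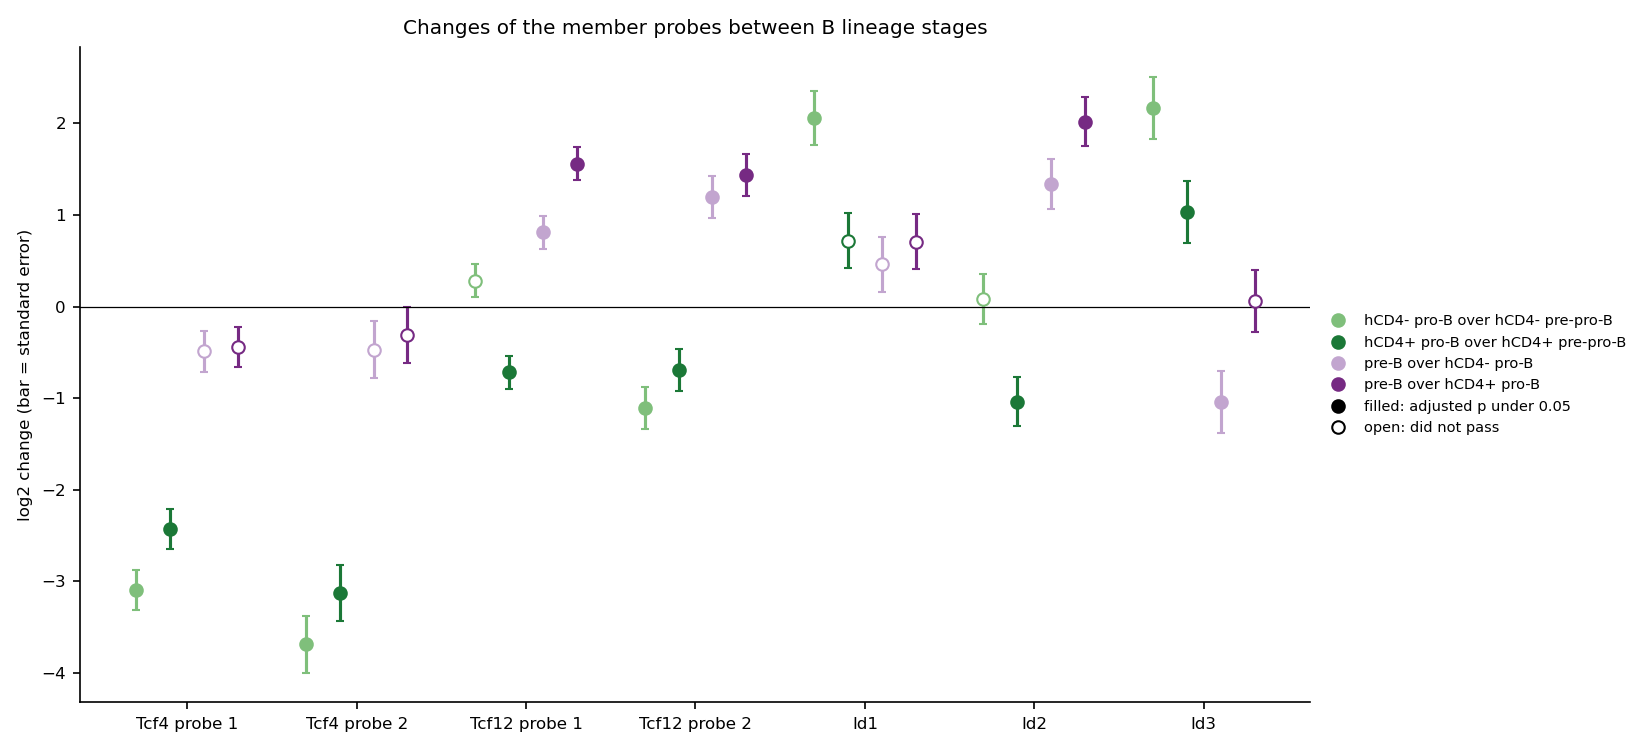
Log2 change (y axis) of the 7 probes (x axis) in 4 comparisons of a later with an earlier B lineage stage, each of 2 against 2 arrays. Bars are standard errors and filled points passed the test. Tcf4 falls between pre-pro-B and pro-B cells, where Id3 rises, and Tcf12 and Id2 rise in pre-B cells.

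Counted by probe, 5 of 7 passed the test in hCD4- pro-B arrays against hCD4- pre-pro-B arrays (both Tcf4 probes and Tcf12 probe 2 lower, Id1 and Id3 higher), where 59.8% of all probes passed. In hCD4+ pro-B arrays against hCD4+ pre-pro-B arrays 6 of 7 passed, all but Id1, beside 53.0% of all probes. The median change of all probes was 0.24 in that comparison. It was 0.07 with quantile normalization, 0.04 with normexp and -0.1 with median scaling. In pre-B arrays 4 of 7 passed against hCD4- pro-B (38.8% of all probes) and 3 of 7 against hCD4+ pro-B (42.0%). On 1 slide, hCD4- pro-B arrays against hCD4+ pre-pro-B arrays, 4 of 7 passed (47.1%). With so large a background, these counts alone do not set the 7 probes apart. GMP differed at 7 of 7 probes from hCD4- pre-pro-B (65.7% of all probes), from hCD4+ pre-pro-B (53.6%) and from pre-B arrays (64.2%), and these comparisons share the GMP arrays. In each, Id1 was higher in GMP and the other 6 probes were lower. Over the 5 steps between neighbouring group means of each probe, 13 of 35 passed the test. Between any 2 groups 17.8% to 65.7% of all probes passed. A share over all probes was not computed for such ordered steps, so this count does not set the 7 probes apart either.

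With hCD4, 1 of the 7 probes passed in each B lineage stage, beside 17.8% of all probes in pre-pro-B and 18.0% in pro-B cells. In pre-pro-B cells it was Id1, higher in hCD4+ than in hCD4- arrays by 1.08 ± 0.30, or 2.12-fold (adjusted p = 0.0411 in limma). The call was lost without hCD4- pre-pro-B array 2 (0.179), hCD4+ pre-pro-B array 1 (0.191) or array 2 (0.0786), and without any 1 pro-B or pre-B array (0.0584 to 0.0616). It was also lost with no filter (0.070), only the arrays compared (0.110), array weights (0.111) and in the authors' deposited table (0.119). In the same comparison 7 of 10 monocyte genes were higher and 0 lower (median change 1.84), with a summed level of 30.0 to 37.7 on the hCD4+ arrays and 14 to 15 on the hCD4- arrays, and 3 of 6 GMP markers were higher (median change 2.74), where 8.74% of all leading probes were higher. The part of such cells in the Id1 change was not tested. Tcf4 was lower by -0.71 and -0.72 with arrays that did not overlap, but did not pass (adjusted p = 0.0605 and 0.141 in limma). Over the alternatives run, Tcf4 passed in 6 of 23 by the first probe and in 2 of 20 by the second. With hCD4- pre-pro-B array 2 alone standing for its group, the changes were -0.98 and -1.07. Tcf12 changed by 0.25 ± 0.18 by the first probe and by -0.66 ± 0.23 by the second, and neither passed (adjusted p = 0.377 and 0.085 in limma). Id2 changed by 0.44 (95% interval -0.17 to 1.05) and Id3 by 0.04 (-0.73 to 0.82).

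In pro-B cells the probe that passed was Tcf12 probe 1, lower in hCD4+ than in hCD4- arrays by -0.75 ± 0.18, or 1.68-fold (adjusted p = 0.0272 in limma), a call lost without hCD4- pro-B array 1 (0.0978), hCD4- pro-B array 2 (0.131) or hCD4+ pro-B array 1 (0.149), with no filter (0.060) and with only the arrays compared (0.0513). Tcf12 probe 2 changed by -0.25 ± 0.23 and did not pass (adjusted p = 0.505 in limma). Id3 was lower by -1.10 ± 0.34 with no overlap of the arrays, and at an adjusted p of 0.0578 in limma it did not pass. Without either hCD4- pre-pro-B array, which leaves the change itself as it is, its adjusted p was 0.0164. Id2 changed by -0.68 ± 0.27 (adjusted p = 0.117 in limma) and Id1 by -0.26 ± 0.30 (0.601). Tcf4 changed by -0.05 and -0.16, with 95% intervals of -0.56 to 0.46 and -0.87 to 0.55.

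Other genes moved with hCD4 in pro-B cells. The GMP markers were higher in hCD4+ than in hCD4- pro-B arrays for 6 of 6 genes (median change 5.63), the classical dendritic cell genes for 5 of 5 (4.24) and the plasmacytoid dendritic cell genes for 13 of 18 (1.22), while over all leading probes 11.1% were higher and the median change was 0.02. Monocyte genes were higher for 7 of 10 (median change 1.97; summed level 24.9 to 26.2 in hCD4+ and 10.1 to 10.5 in hCD4- pro-B arrays) and natural killer and innate lymphoid genes for 6 of 9 with 1 lower (1.31). Of 9 neutrophil granule genes 4 were higher and 4 lower (median change -1.63). Of the 16 B lineage genes that E proteins are known to activate, 0 rose and 3 fell, with a median change of -0.60, where 8.07% of all leading probes fell. The 3 were Blnk, an adaptor of B cell receptor signalling (-0.73 ± 0.15), Foxo1, a transcription factor (-0.60 ± 0.13), and Cd79b, a chain of that receptor (-0.60 ± 0.13), with adjusted p of 0.0151, 0.0180 and 0.0143 in limma. Tcf3 was lower by -0.67 ± 0.19 by its leading probe (adjusted p = 0.0450 in limma) and by -0.47 ± 0.16 by the other, which did not pass (0.0759). The part of these cells or genes in the member levels was not tested.

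The hCD4 change itself differed between the stages for 1 of 7 probes, beside 22.0% of all probes. Tcf12 probe 1 had an hCD4 change lower by -1.0 ± 0.26 in pro-B than in pre-pro-B cells (adjusted p = 0.0307 in limma). The call was lost without hCD4- pre-pro-B array 2, either hCD4+ pre-pro-B array, either hCD4- pro-B array or hCD4+ pro-B array 1 (0.0627 to 0.0940), with no filter (0.062) and in the authors' deposited table (0.418), and Tcf12 probe 2 gave 0.41 ± 0.33 (0.389). The differences for Id1, Id2 and Id3, -1.34, -1.12 and -1.14, did not pass (adjusted p = 0.0552, 0.0660 and 0.121 in limma).

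**Figure D4:**
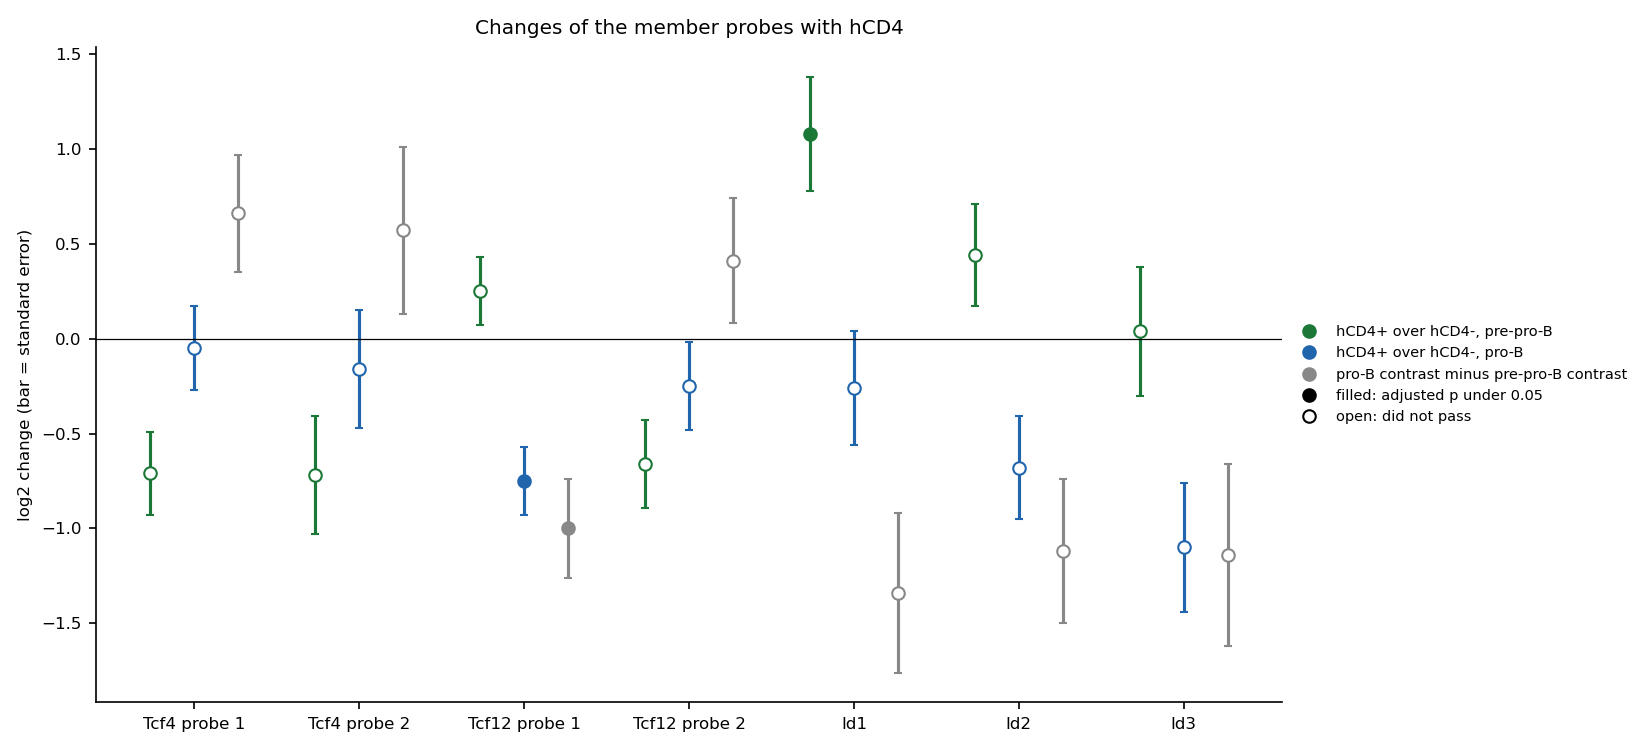
Log2 change of hCD4+ over hCD4- arrays (y axis) of the 7 probes (x axis) in pre-pro-B and pro-B cells, 2 against 2 arrays each, and the pro-B change minus the pre-pro-B change. Bars are standard errors and filled points passed the test, which are Id1 in pre-pro-B cells and Tcf12 probe 1 in pro-B cells and in the difference.

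Genes of the same regulatory circuit were read from lists of partners, targets and upstream signals. In hCD4- pro-B arrays against hCD4- pre-pro-B arrays, 6 of 13 kept partner genes rose and 5 fell (median change 0.35), where 32.6% of all leading probes rose and 26.9% fell. Hes1, a repressor downstream of Notch, was at least 9.89-fold higher and Tal1, a helix-loop-helix partner of E proteins in blood progenitors, at least 6.44-fold higher, both being not well above background on the hCD4- pre-pro-B arrays. Lyl1, a relative of Tal1, rose by 2.57 ± 0.17, and Bhlhe40, a repressor of the same fold, fell with a change of -5.26 ± 0.72 (adjusted p = 4.87e-06 and 0.000311 in limma). Id4, the other Id gene, was not kept, as no group had it well above background on both arrays.

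Of the 16 B lineage targets, 15 rose and 0 fell in that comparison, with a median change of 7.42. Ebf1 was at least 308-fold and Igll1, a surrogate light chain, at least 843-fold higher in hCD4- pro-B than in hCD4- pre-pro-B arrays. In GMP against pre-B arrays 16 of 16 fell (median change -9.14), where 34.3% of all leading probes fell and the median change was -0.13. In pre-B against hCD4- pro-B arrays 2 rose and 4 fell, beside 19.4% and 21.0% of all leading probes, and the 4 with the largest changes were Dntt, which adds bases at V(D)J joints, and the surrogate light chain genes Igll1, Vpreb2 and Vpreb1, from -2.76 to -1.75.

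BMP and TGF-beta signals act on Id genes through Smad proteins, and 18 genes of that pathway were kept. In GMP against hCD4- pre-pro-B arrays, where Id1 was 15.2-fold higher, 5 rose and 8 fell with a median change of -0.50, beside 34.7% and 30.7% of all leading probes and a median of -0.04. Smad6, an inhibitory Smad, was at least 1.19-fold higher, and the receptors Tgfbr3, Tgfbr2 and Tgfbr1 fell with changes of -2.39 ± 0.14, -2.31 ± 0.18 and -2.17 ± 0.15 (adjusted p = 2.11e-06, 8.80e-06 and 3.96e-06 in limma). In hCD4- pro-B arrays against hCD4- pre-pro-B arrays 4 rose, Smad3 by 1.55 ± 0.11 among them, and 6 fell, beside 32.6% and 26.9% of all leading probes. With hCD4, 0 of 18 passed in pre-pro-B cells (8.74% of all leading probes higher, 8.40% lower). In pro-B cells 1 passed (11.1% of all leading probes higher, 8.07% lower), Smad3 at -0.39 ± 0.11 (adjusted p = 0.0494 in limma).

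The genes most like each member over the 12 arrays were found by Pearson correlation of log2 levels among 11898 other named genes, as a description, since the arrays share 6 groups. For Tcf4 they were Dst (0.992), H2-Oa (0.991) and Clcn5 (0.990), and for Tcf12 they were Baz2b (0.981), Peli1 (0.976) and Caprin2 (0.976). For Id1 they were Lonrf3 (0.972), Med8 (0.969) and Sntb2 (0.968). For Id2 they were Cnp (0.974), Cytip (0.971) and Ier5l (0.969), and for Id3 they were Stk10 (0.989), Inpp5d (0.984) and Zeb1 (0.983).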

How the data were processed

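Total RNA of sorted marrow cells was amplified and labelled with Cy3, per the labels. The authors deposited 12 scanner files from Agilent Feature Extraction 10.7.3.1, and per the file headers their processed signal is a background-corrected intensity. They also deposited a log2 table with a single value for each gene, to 1 decimal, used only as an alternative; its normalization is not given in the sources used here, and every column has a median of 6.5. Here log2 of the processed signal minus each array's 75th percentile was taken over non-control spots, 2469 outlier spot values were left out, spots of a probe were averaged, and a probe was kept where at least 1 group had it well above background on both its arrays (23298 of 39429). limma 3.58.1 (R 4.3.3, the data.table package at 1.17.8, jsonlite 2.0.0) fitted 6 groups of 2 arrays, with 6 residual and 2.23 prior degrees of freedom and two-sided tests over 11 comparisons. Figures used matplotlib 3.10.9 in Python 3.11.15.

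The leading probe of a gene has the highest mean level. "At least N-fold" sets the dimmer group to the dimmest probe still above background on its arrays. The member genes are all named, as are up to 4 genes a list with the largest called changes and a few marker genes. For the 3 genes most like a member, candidates were named genes well above background on all 12 arrays. Genes that differed between the groups in limma's F test (adjusted p under 0.05) were candidates too. The members and lists were chosen with earlier results of these data known. The lists also held T cell, monocyte, neutrophil, erythroid and plasma cell genes: as sums on the 12 arrays, T cell genes lay between 1.79 and 18.5, monocyte genes between 8.63 and 149, neutrophil granule genes between 2.26 and 1060, erythroid and megakaryocyte genes between 0.312 and 1.82, plasma cell genes between 10.8 and 52.7, classical dendritic cell genes between 0.182 and 99.0 and natural killer and innate lymphoid genes between 2.76 and 46.8 times the 75th percentile. Arrays of 23272 probes were simulated for hCD4+ against hCD4- pro-B cells. The fit recovered 45% of 100 changes of 1 and 78% of 100 changes of 2 on the log2 scale, with 9 false calls. No other probes were changed, whereas 18.0% of all probes passed in the real comparison. These rates are therefore not the power of the tests reported. Probe places are the array annotation's on mm9, and their exons or UTRs were not analysed here. The number of arrays limits the precision.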

Additional observations from a re-analysis of the deposited data

Results flagged for a closer look

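The hCD4 change of Tcf12 probe 1 differed between pro-B and pre-pro-B cells by -1.0 on the log2 scale in the test of the difference itself. It was -0.75 in pro-B and 0.25 in pre-pro-B cells, and the second Tcf12 probe gave a difference of 0.41. By that probe the hCD4 change was -0.25 in pro-B and -0.66 in pre-pro-B cells, so the probes had opposite signs in pre-pro-B cells. Neither change of the second probe passed (adjusted p = 0.505 and 0.085 in limma).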

How the results depend on the processing

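The fall of Tcf4 in pro-B cells, the rise of Id1 and Id3 in hCD4- pro-B arrays against hCD4- pre-pro-B arrays, the rise of Id2 in pre-B cells and every GMP difference except that of Tcf12 probe 1 kept direction and call under all alternatives run. By gene (leading probe), the calls with hCD4 did not. Of 5 genes, 1 passed in pre-pro-B cells, 1 in pro-B cells and 1 in the difference of the 2 changes. The count for pre-pro-B cells was 2 with normexp and with only probes above background on all arrays, and 0 with no filter, with only the arrays compared and with array weights. The count for pro-B cells was 2 with median scaling, normexp, only probes above background on all arrays, array weights and detection floors, and 0 with no filter. The count for the difference was 2 with quantile normalization, normexp and detection floors, 3 with only probes above background on all arrays or only the arrays compared, 4 with median scaling, and 0 with no filter and in the authors' deposited table. Leaving out 1 array at a time gave 0 to 2 genes with hCD4 in pre-pro-B and in pro-B cells, 0 to 3 for the difference, 1 to 5 for hCD4+ pro-B arrays against hCD4+ pre-pro-B arrays (main count 4), 1 to 3 for pre-B against hCD4- pro-B (main count 3), 3 to 3 for hCD4- pro-B arrays against hCD4- pre-pro-B arrays, 2 to 3 for pre-B against hCD4+ pro-B and for hCD4- pro-B arrays against hCD4+ pre-pro-B arrays, 5 to 5 for each GMP comparison and 8 to 16 of the 35 neighbour steps.

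The replicate numbers share only a number: deviations of same-numbered arrays correlated at -0.02 to 0.27 over 15 pairs of groups (median 0.14, 10 of 15 pairs over 0.1). With the replicate block, 3 genes passed with hCD4 in pro-B cells, with Id2 (adjusted p = 0.0484 in limma) and Id3 (0.0205) added, and 4 in the difference, with Id1 (0.0276), Id2 (0.0272) and Id3 (0.0478) added.

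Signs that turned were of changes that did not pass in the main setting. Tcf12 probe 1 in hCD4- pro-B arrays against hCD4+ pre-pro-B arrays became -0.01 (quantile normalization and normexp), -0.09 (median scaling) and -0.06 (without hCD4+ pre-pro-B array 2). The authors' deposited table has a single Tcf12 value, not tied to a probe, whose sign was opposite to that of probe 1: -0.25 in that comparison, -0.15 with hCD4 in pre-pro-B cells and -0.40 in hCD4- pro-B arrays against hCD4- pre-pro-B arrays (adjusted p = 0.00851 in limma). Tcf12 probe 2 became -0.12 in the difference (median scaling). Without 1 array at a time, Id3 lay between -0.48 and 0.57 with hCD4 in pre-pro-B cells (below 0 at -0.48 and -0.03) and between -0.26 and 0.37 in pre-B against hCD4+ pro-B (-0.08 and -0.26), Tcf12 probe 1 reached 0.12 in the comparison above, Id2 lay between -0.13 and 0.29 (-0.09 and -0.13) in hCD4- pro-B arrays against hCD4- pre-pro-B arrays, and Tcf4 probe 1 lay between -0.23 and 0.14 with hCD4 in pro-B cells. The cause was not tested.

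Median scaling moved the median change of all probes by 0.32 with hCD4 in pre-pro-B, by -0.21 in pro-B cells and by -0.54 in the difference. The share of called probes that were higher was 81.8%, 32.0% and 18.0% there, against 46.2%, 58.1% and 59.1% in the main setting, and it moved by over 10 percentage points in 4 other comparisons (38.4% against 60.9%, 31.5% against 48.6%, 67.5% against 51.4% and 66.4% against 46.5%). The other scalings moved that share too. With quantile normalization, normexp and the authors' deposited table (by gene) it was 56.2%, 49.1% and 52.2% with hCD4 in pre-pro-B cells. In pro-B cells it was 51.3%, 47.7% and 47.8%, and in the difference 46.4%, 47.3% and 46.5%. The shares of all probes given beside the members are those of the main setting. Slide as a block could not be fitted, since each group lies on 1 slide.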

Other observations

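Other partners of E proteins and Id proteins also differed between the groups. Ascl2, a helix-loop-helix factor that pairs with E proteins, was at least 12.8-fold higher in GMP than in hCD4- pre-pro-B arrays and at least 16.2-fold higher in GMP than in pre-B arrays. Tal1 was at least 35.0-fold higher in GMP than in hCD4- pre-pro-B arrays. Against hCD4+ pro-B arrays, pre-B arrays were lower for Lmo2, an adaptor that joins Tal1 to E proteins (-2.46 ± 0.15), and higher for Lmo4, a related adaptor (2.44 ± 0.12), with adjusted p of 1.25e-05 and 4.37e-06 in limma. Lmo4 was lower in hCD4+ than in hCD4- pro-B arrays by -0.79 ± 0.12 and higher in hCD4+ than in hCD4- pre-pro-B arrays by 0.41 ± 0.12, and the test of the difference gave -1.20 ± 0.17 (adjusted p = 0.00264 in limma).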
